A study of Mus musculus with 6 samples.

Results

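Transcripts of 10 nuclear receptors were followed in mouse macrophages stimulated with interferon-γ and lipopolysaccharide: Nr4a1, Nr4a2, Nr4a3, Nr3c1, Nr1d1, Nr1d2, Rara, Rxra, Vdr and Esrra. They were taken by gene symbol from the deposited table of 54532 genes, in which each symbol occurs once, and 7 of the 10 were expressed highly enough to enter the test. The values come from 3 SAHH-KO libraries and 3 control libraries of bulk RNA-seq. All cells were labelled as peritoneal macrophages elicited with thioglycollate 4 days before harvest, kept after 6 h of adherence and then given 2 ng/mL interferon-γ with 10 ng/mL lipopolysaccharide for 8 h. The SAHH-KO libraries, named a knockout in the titles and a knockdown in the genotype field, come from cells in which S-adenosylhomocysteine hydrolase was targeted. The control libraries are named shControl in the titles and WT in the genotype field. Strain, sex and age of the mice are not given in the sources used here, and nothing says whether replicates were separate animals or cultures. P-values therefore measure the spread between these libraries, which may be technical. No unstimulated libraries were analysed here, so induction by the stimulus itself was not measured.

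Nuclear receptors are transcription factors with a zinc-finger domain that binds DNA and a domain that, in many of them, binds a small lipophilic ligand. The NR4A receptors are orphans switched on as immediate-early genes, and they act as monomers on an extended half-site. NR3C1 is the glucocorticoid receptor, held by chaperones until hormone binds, and it restrains inflammatory genes in macrophages. NR1D1 and NR1D2 (REV-ERBα and REV-ERBβ) are haem-binding repressors of the circadian clock that recruit the NCOR1 and HDAC3 corepressors. RARα and the vitamin D receptor work as heterodimers with RXRα, the shared partner of many receptors. ERRα, encoded by Esrra, is an orphan that drives mitochondrial genes together with PGC-1 coactivators.

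Ahcy, the gene of the targeted enzyme, read 5.51, 5.50 and 6.23 FPKM in the SAHH-KO libraries, against 25.8, 22.6 and 24.4 FPKM in the control libraries (limma adjusted p = 1.44e-06). FPKM divides a gene's fragments by its length and by the library size, so levels of different genes can be compared. Near-identical copies limit the Ahcy level, since 66.0% of its 50-base words also occur in Gm4737. Assigned reads numbered 15856261 to 17748745 in SAHH-KO and 15540442 to 16676534 in control. Across the transcriptome 53.3% of the 10362 tested genes were past the threshold of an adjusted p under 0.05, 26.4% higher and 26.8% lower in SAHH-KO. Values rescaled to TPM, which sum to the same total in each library, gave 2006 higher and 3894 lower in place of 2736 and 2782, and they moved the median of all genes to -0.16 on the log2 scale from -0.01. Of 10 macrophage markers 7 averaged at least 1 FPKM, while Timd4 had no read. The list summed to 9320 to 10586 FPKM in SAHH-KO and 8344 to 8645 FPKM in control. Lyz2 holds most of that sum, at 6616 ± 708 FPKM in SAHH-KO and 5653 ± 144 FPKM in control, and was not called (adjusted p = 0.0670). In the list 4 genes were called higher and 0 lower, among them the F4/80 gene Adgre1 (2.09-fold) and the Fc receptor gene Fcgr1 (4.79-fold). Cd68 overlapped between the groups (1.03-fold). Csf1r was lower in every SAHH-KO library than in any control library but was not called. It had 91.0 ± 6.62 FPKM in SAHH-KO and 107 ± 8.07 FPKM in control (adjusted p = 0.0568). Of 10 neutrophil markers 7 had no read, among them Ly6g and S100a9, and the list summed to 0.503 to 0.820 FPKM in SAHH-KO and 4.76 to 5.66 FPKM in control. That difference is nearly all S100a8, at 0.189 ± 0.251 FPKM in SAHH-KO and 4.63 ± 0.486 FPKM in control, whereas Camp overlapped between the groups (0.415 ± 0.121 FPKM in SAHH-KO and 0.521 ± 0.136 FPKM in control). The part of either list's movement in the results was not tested. The other 7 marker lists, of lymphocytes, mast cells, dendritic cells, stromal, endothelial and red cells, each summed to at most 0.465 FPKM in any library. In such bulk libraries fewer cells with a transcript cannot be told apart from less transcript per cell.

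Among the 10 receptors, Nr4a1 and Esrra rose and Rxra and Nr1d2 fell in SAHH-KO. Nr1d1, Nr3c1 and Rara did not pass the threshold, and Nr4a2, Nr4a3 and Vdr were too low to be tested. The 4 called among 7 tested stand beside 53.3% of all genes, so the share called is close to the background. With TPM values 2 members were higher (19.4% of all genes) and 3 lower (37.6%), and scaling by assigned reads gave the same counts of members beside 19.6% and 37.7% of all genes. For 5 of the 7 the libraries of the groups were fully separated, 2 higher (30.7% of all tested genes) and 3 lower (31.6%), beside 62.3% of all tested genes in either direction. The median log2 fold change of the 7 was 0.24, against -0.01 for all tested genes.

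**Figure D1:**
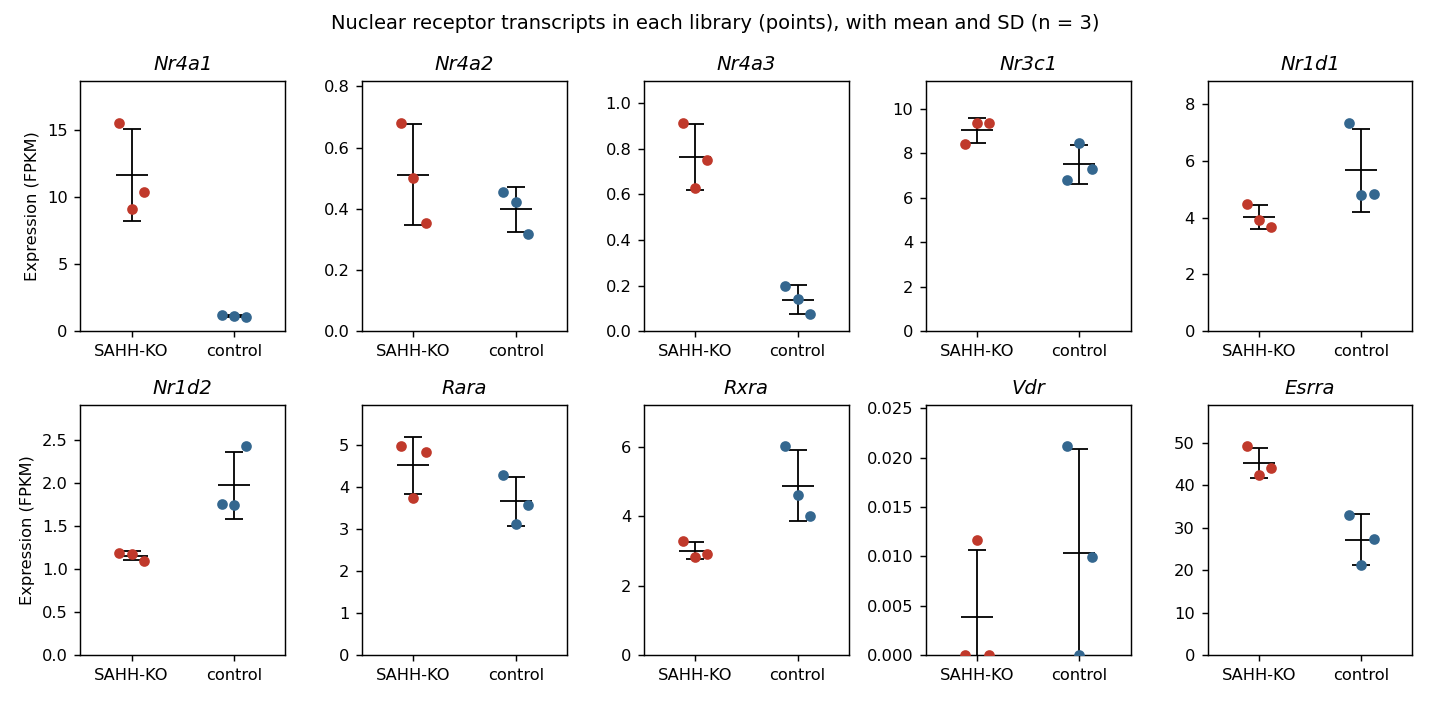
Expression of the 10 receptors in FPKM, with a linear axis from 0 in each panel. Points are libraries, and bars are the mean and SD of 3 libraries. All SAHH-KO points of Nr4a1 lie above 9 FPKM and all control points below 1.2 FPKM, and the Vdr axis spans no more than 2 reads.

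The start regions of the NR4A genes, of both REV-ERB genes and of Rxra are shown first, so that the paralogues can be compared base by base. Windows of 9 of the 10 receptors were taken by symbol from the RefSeq promoter table of GRCm38.p6, and Nr3c1 was left out of this step. The table holds 250 bases before and 50 bases after each annotated start. For the NR4A genes capitals mark TGACG on either strand, the half-site of the cAMP response element TGACGTCA. The windows are chr15:101266596-101266895 on the plus strand for Nr4a1, chr2:57123954-57124253 on the minus strand for Nr4a2 and chr4:48045055-48045354 on the plus strand for Nr4a3.
Nr4a1: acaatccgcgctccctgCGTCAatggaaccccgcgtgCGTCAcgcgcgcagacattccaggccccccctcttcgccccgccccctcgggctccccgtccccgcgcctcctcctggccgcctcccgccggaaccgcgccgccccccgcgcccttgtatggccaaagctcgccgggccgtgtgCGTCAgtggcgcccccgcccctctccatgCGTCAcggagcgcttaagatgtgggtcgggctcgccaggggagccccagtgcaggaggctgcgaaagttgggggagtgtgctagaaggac
Nr4a2: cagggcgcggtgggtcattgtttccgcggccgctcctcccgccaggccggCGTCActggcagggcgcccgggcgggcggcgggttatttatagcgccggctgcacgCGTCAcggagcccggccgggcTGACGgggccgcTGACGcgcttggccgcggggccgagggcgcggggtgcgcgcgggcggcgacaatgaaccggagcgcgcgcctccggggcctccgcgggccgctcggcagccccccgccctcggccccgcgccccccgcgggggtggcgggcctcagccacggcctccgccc
Nr4a3: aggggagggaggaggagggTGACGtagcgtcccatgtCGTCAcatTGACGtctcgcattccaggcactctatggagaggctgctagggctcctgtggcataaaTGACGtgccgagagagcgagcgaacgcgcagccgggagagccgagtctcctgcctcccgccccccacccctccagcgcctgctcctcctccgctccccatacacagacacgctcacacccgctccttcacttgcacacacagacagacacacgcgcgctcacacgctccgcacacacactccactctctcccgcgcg

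Each of these windows held 4 matches to TGACG, all upstream of the start. In Nr4a1 they began 233, 213, 69 and 40 bases before it, in Nr4a2 200, 144, 123 and 111 bases, and in Nr4a3 231, 213, 205 and 147 bases. At least 1 match was present in 20.8% of all 32851 promoter windows and at least 4 matches in 0.231%, or in 0.563% of the 6218 windows with a GC content of at least 64.7%, that of Nr4a3. Both cut-offs were taken from the NR4A windows themselves, so these shares are no test of them. GC content was 72.3% in Nr4a1 and 81.7% in Nr4a2, against a median of 52.7% over all windows. The full element TGACGTCA, with which TGACG overlaps, occurred in none of the NR4A windows and in 1.79% of all. The site bound by NR4A monomers (NBRE, AAAGGTCA) was in none of them either. A match of letters is not a bound site, and any part of these matches in the expression values was not tested. Nr4a2 had 181 reads over all libraries, too few to set its values below against its matches.

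**Figure D2:**
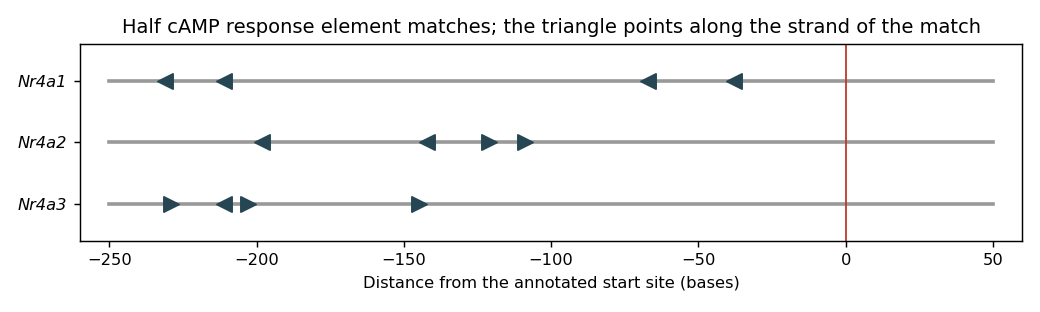
Positions of the matches to TGACG in the windows of Nr4a1, Nr4a2 and Nr4a3, with distance from the annotated start in bases on the horizontal axis. Each triangle is a match and points along its strand, and each gene has 4, all left of the start line.

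For the REV-ERB genes and Rxra the windows are chr11:98775328-98775627 on the minus strand for Nr1d1, chr14:18239057-18239356 on the minus strand for Nr1d2 and chr2:27709042-27709341 on the plus strand for the downstream one of 2 annotated Rxra starts. Capitals mark AGGTCA on either strand, the half-site that many nuclear receptors bind, and the NBRE that contains it.
Nr1d1: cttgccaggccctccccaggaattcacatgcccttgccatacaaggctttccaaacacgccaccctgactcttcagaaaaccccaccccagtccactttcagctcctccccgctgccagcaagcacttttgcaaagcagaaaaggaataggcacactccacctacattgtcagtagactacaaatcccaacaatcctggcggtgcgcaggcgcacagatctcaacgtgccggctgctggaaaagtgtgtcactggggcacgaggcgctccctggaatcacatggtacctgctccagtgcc
Nr1d2: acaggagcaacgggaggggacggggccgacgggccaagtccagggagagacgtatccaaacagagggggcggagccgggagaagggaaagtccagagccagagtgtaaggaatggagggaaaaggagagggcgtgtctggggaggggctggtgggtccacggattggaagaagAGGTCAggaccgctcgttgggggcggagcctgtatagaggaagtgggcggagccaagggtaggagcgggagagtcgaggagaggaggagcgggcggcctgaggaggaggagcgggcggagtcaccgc
Rxra: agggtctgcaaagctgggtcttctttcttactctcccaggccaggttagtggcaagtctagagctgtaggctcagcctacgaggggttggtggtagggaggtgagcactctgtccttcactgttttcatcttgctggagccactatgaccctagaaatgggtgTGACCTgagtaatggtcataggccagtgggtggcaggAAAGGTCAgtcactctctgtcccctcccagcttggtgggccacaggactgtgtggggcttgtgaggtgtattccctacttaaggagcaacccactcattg

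Nr1d2 held 1 half-site, 77 bases before its start, and Nr1d1 held none of the 8 motifs searched. The Rxra window held an inverted half-site 87 bases and an NBRE 50 bases before the start, and the upstream Rxra window (chr2:27676951-27677250, GC content 83.0%) held none of the motifs. AGGTCA was present in 16.3% of all windows and the NBRE in 1.51%. On both strands the E-box CACGTG, the D-box TTATGTAA, the interferon-stimulated response element, the interferon-γ element TTCNNNGAA, and the motifs above were searched. Among the 9 receptors, the interferon-γ element was found in Rara alone, 197 bases before an annotated start. None of the 9 held the interferon-stimulated response element. These elements occurred in 8.30% and 3.44% of all windows. Rara windows also held the E-box, TGACG and AGGTCA, and those of Vdr and Esrra held no match. No exact match to the E-box CACGTG or the D-box TTATGTAA, elements through which clock factors act, was found in these windows of Nr1d1 and Nr1d2. Variants of these letters were not searched. The E-box occurred in 7.15% and the D-box in 0.938% of all windows.

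Nr4a1 (NUR77), which is induced by Toll-like receptor and antigen receptor signals and restrains inflammatory macrophages, had the largest change of the 10. It read 15.6, 9.10 and 10.4 FPKM in SAHH-KO and 1.19, 1.13 and 1.07 FPKM in control, from 909, 486 and 561 reads in SAHH-KO and 70, 65 and 67 reads in control. All SAHH-KO libraries were far above all control libraries, with the first SAHH-KO library above the other two. The mean was 11.7 ± 3.43 FPKM in SAHH-KO and 1.13 ± 0.0616 FPKM in control (SD, n = 3 each), a 10.3-fold difference. On log2(FPKM + 1), a scale that understates the change of low genes, the fold change was 2.54 (SE 0.169, 95% interval 2.15 to 2.93, limma adjusted p = 9.21e-06). A fit to reads by limma's voom gave 3.33. Without SAHH-KO replicate 1 it was 2.33. Nr4a1 (ENSMUSG00000023034) lies on the plus strand of chromosome 15 of GRCm38, bases 101254269 to 101274795, and the RefSeq start of the window above lies inside this span.

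Nr4a3 (NOR1) was counted far lower, at 0.914, 0.626 and 0.749 FPKM in SAHH-KO and 0.199, 0.143 and 0.0747 FPKM in control, or 91, 57 and 69 reads in SAHH-KO and 20, 14 and 8 reads in control. Each SAHH-KO library was above every control library. No library reached 1 FPKM, so the gene was not in the test. In a voom fit over 11960 genes with at least 10 reads in 3 libraries, chosen after the data were seen, its log2 fold change was 2.52 (SE 0.351, adjusted p = 4.49e-05), and without the filter limma also called it (adjusted p = 0.00383). In that voom fit 26.6% of genes were called higher and 26.9% lower, and of the 9 members in it 4 were higher and 3 lower. The ratio of group means was 5.49. Nr4a2 (NURR1) did not separate, with 46, 31 and 22 reads in SAHH-KO and 31, 28 and 23 reads in control, or 0.512 ± 0.165 FPKM in SAHH-KO and 0.398 ± 0.0723 FPKM in control. Its log2 fold change was 0.34 in the voom fit (SE 0.314, adjusted p = 0.385), so its change was not distinguishable from 0 at this depth.

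Taken as a subfamily, NR4A transcripts summed to 13.0 ± 3.70 FPKM in SAHH-KO and 1.67 ± 0.195 FPKM in control. Nr4a1 made up 90.7%, 89.0% and 90.4% of that sum in the SAHH-KO libraries, against 64.5%, 66.7% and 73.2% in the control libraries. The log2 ratio of Nr4a1 to Nr4a3 was 2.82 ± 0.259 in SAHH-KO and 0.90 ± 0.0378 in control, and that of Nr4a1 to Nr4a2 was 3.04 ± 0.277 in SAHH-KO and 0.61 ± 0.0371 in control. These were computed on FPKM + 1, which compresses the low Nr4a2 and Nr4a3, and on that scale both differences had p = 0.10 by the exact two-sided permutation test, the smallest that 3 against 3 allows (adjusted p = 0.125 over 5 ratios). The separation of the Nr4a1 to Nr4a3 ratio came with the pseudocount. The plain FPKM ratio was 17.04, 14.5 and 13.9 in SAHH-KO and 5.97, 7.92 and 14.3 in control, so the groups overlapped, and the log2 difference was 0.78 (exact permutation p = 0.20) in place of 1.91. The plain ratio of Nr4a1 to Nr4a2 was 22.9, 18.1 and 29.5 in SAHH-KO and 2.61, 2.69 and 3.37 in control, without overlap, and its log2 difference was 3.005 (exact permutation p = 0.10) in place of 2.43.

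**Figure D3:**
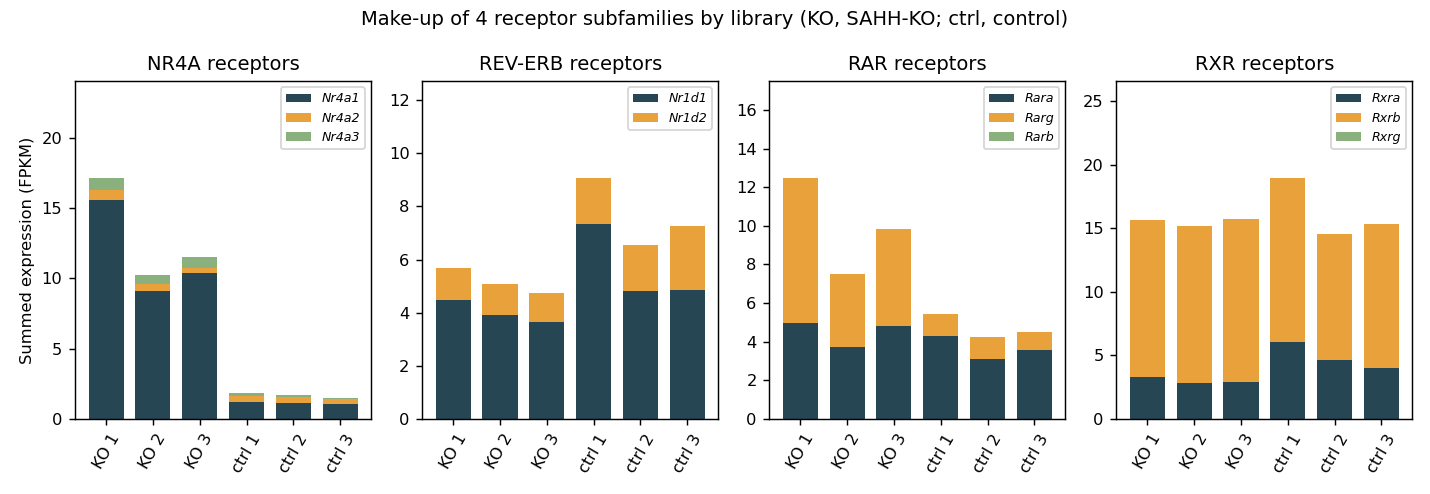
Summed FPKM of the NR4A, REV-ERB, RAR and RXR receptors in each library, with SAHH-KO (KO) libraries left of control (ctrl) libraries and colours for the genes. Nr4a1 fills most of the NR4A bars in SAHH-KO. Rarg makes up 60.4%, 50.2% and 50.9% of the RAR bars in SAHH-KO, so it is nearly even with Rara in replicates 2 and 3. The RXR bars are of like height with a smaller Rxra part in SAHH-KO.

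The tested genes whose centred log2(FPKM + 1) profiles over the 6 libraries lay nearest to Nr4a1 were Nfkbie, Fam129a and Crybg2, at Euclidean distances of 0.171, 0.214 and 0.242. Nfkbie, which encodes an IκB protein, had 38.9 ± 9.16 FPKM in SAHH-KO and 6.01 ± 0.638 FPKM in control. With 2 groups that differ this much, a small distance says mainly that the size of the difference was alike. Immediate-early genes, the class to which NR4A genes belong, were tested for 23 of 24, and 14 rose and 2 fell, with a median log2 fold change of 0.64, beside 26.4% of all genes higher and 26.8% lower. Csrnp1, a transcription factor gene, reached 33.1 ± 3.83 FPKM in SAHH-KO, against 10.5 ± 1.26 FPKM in control. The stress factor gene Atf3 had 264 ± 1.81 FPKM in SAHH-KO and 145 ± 1.74 FPKM in control, and the AP-1 gene Jund 46.6 ± 0.834 FPKM in SAHH-KO and 24.2 ± 1.22 FPKM in control. Jun fell to 14.9 ± 3.54 FPKM in SAHH-KO, against 36.7 ± 6.53 FPKM in control, and Ier3, a survival gene, fell to 287 ± 66.2 FPKM, against 814 ± 38.7 FPKM in control. Of genes looked at after their values were seen, Egr1 rose 2.22-fold (adjusted p = 0.00307), while Fos had 6.02 ± 1.14 FPKM in SAHH-KO and 8.17 ± 1.72 FPKM in control (adjusted p = 0.0883).

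Nr3c1, the glucocorticoid receptor gene, was the second most abundant of the 10 in control. It read 8.39, 9.34 and 9.36 FPKM in SAHH-KO and 6.77, 8.47 and 7.27 FPKM in control, and the lowest SAHH-KO library lay just under the highest control library. The mean was 9.03 ± 0.558 FPKM in SAHH-KO and 7.50 ± 0.875 FPKM in control, with a log2 fold change of 0.24 (SE 0.0989, 95% interval 0.02 to 0.47, limma adjusted p = 0.0688). The call depended on the setting: without control replicate 2 the adjusted p was 0.0201, voom gave 0.0455, and rescaling to TPM reduced the fold change to 0.10 with an adjusted p of 0.432.

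Of 12 chaperone and cochaperone genes listed for the glucocorticoid receptor, all tested, 5 fell and 0 rose by limma, with a median log2 fold change of -0.27, beside 26.8% of all genes lower. Hsp90b1, counted among the 5, acts inside the endoplasmic reticulum and does not hold the receptor, and without it 4 of 11 fell (median -0.21). None of the 12 was higher at an unadjusted p under 0.05 or by voom, although Stip1 had fully separated groups, at 128 ± 4.12 FPKM in SAHH-KO and 117 ± 4.19 FPKM in control (adjusted p = 0.154). With TPM 10 of the 12, or 9 of the 11, were called lower, beside 37.6% of all genes. Hsp90b1 fell to 110 ± 9.61 FPKM in SAHH-KO, against 222 ± 22.7 FPKM in control. Hsp90aa1, the inducible cytosolic HSP90, fell to 166 ± 14.3 FPKM, against 260 ± 33.9 FPKM in control, and the cochaperone gene Bag1 fell to 77.8 ± 1.01 FPKM, against 98.2 ± 6.35 FPKM in control. Hsp90ab1, the constitutive form, was looked at after its values were seen and had 876 ± 30.6 FPKM in SAHH-KO and 868 ± 65.8 FPKM in control (adjusted p = 0.887).

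Of 20 genes that glucocorticoids induce, 17 were tested, 11 of them higher and 1 lower, with a median log2 fold change of 0.59. These are 64.7% and 5.88% of those tested, beside 26.4% of all genes higher and 26.8% lower. The members with the smallest p were Zfp36, which destabilises cytokine mRNAs, at 263 ± 4.54 FPKM in SAHH-KO and 69.8 ± 7.81 FPKM in control, the IκBα gene Nfkbia at 835 ± 64.0 FPKM in SAHH-KO and 326 ± 19.3 FPKM in control, and the mTOR inhibitor gene Ddit4 at 16.4 ± 1.36 FPKM in SAHH-KO and 4.37 ± 0.681 FPKM in control. Zfp36 and Nfkbia are also induced by Toll-like receptor signals. Errfi1, a feedback inhibitor of the EGF receptor, fell to 4.26 ± 0.876 FPKM in SAHH-KO, against 11.6 ± 0.0697 FPKM in control. Genes more specific to the hormone were looked at after their values were seen. Tsc22d3 (GILZ) rose to 1.75 ± 0.332 FPKM in SAHH-KO, against 0.539 ± 0.248 FPKM in control, having entered the test only through the SAHH-KO libraries, and Klf9 rose to 4.75 ± 0.272 FPKM, against 2.84 ± 0.331 FPKM in control. Fkbp5 had 5.84 ± 0.434 FPKM in SAHH-KO and 6.32 ± 0.310 FPKM in control while Per1 had a log2 fold change of 0.29 (SE 0.140), and neither passed the threshold (adjusted p = 0.368 and 0.112).

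The REV-ERB genes were both lower in every SAHH-KO library than in any control library, but only Nr1d2 passed the threshold. Nr1d2 read 1.19, 1.18 and 1.09 FPKM in SAHH-KO and 1.76, 1.75 and 2.43 FPKM in control, with means of 1.15 ± 0.0525 FPKM in SAHH-KO and 1.98 ± 0.392 FPKM in control. It stood at 58.3% of its control mean (log2 fold change -0.46, SE 0.116, 95% interval -0.73 to -0.19, adjusted p = 0.0103). Nr1d1 read 4.49, 3.91 and 3.65 FPKM in SAHH-KO and 7.34, 4.80 and 4.84 FPKM in control, with the first control library high. Its mean was 4.02 ± 0.431 FPKM in SAHH-KO and 5.66 ± 1.45 FPKM in control. Its log2 fold change was -0.39 (SE 0.150, 95% interval -0.73 to -0.04, adjusted p = 0.0570), and it was called without control replicate 2 (adjusted p = 0.0435), with the replicate number as a block (0.0187), by voom (0.0404) and with TPM (0.0178). Without control replicate 1 the fold change was -0.22. The log2 ratio of Nr1d1 to Nr1d2 was 1.22 ± 0.0958 in SAHH-KO and 1.15 ± 0.420 in control (exact permutation p = 0.80). Summed, the pair had 5.17 ± 0.474 FPKM in SAHH-KO and 7.63 ± 1.31 FPKM in control.

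The Nr1d1 level carries a limit of position. Nr1d1 (ENSMUSG00000020889, minus strand of chromosome 11, bases 98767932 to 98775333) runs tail to tail into Thra on the opposite strand, and 263 exon bases, 8.55% of those of Nr1d1, are shared. Strand use in counting is not given, so reads of that stretch cannot be told apart. Thra, the thyroid hormone receptor α gene, rose, with 4.73, 2.88 and 3.87 FPKM in SAHH-KO and 2.32, 1.49 and 1.49 FPKM in control (adjusted p = 0.00451). Nr1d2 shared 5.13% of its 50-base words with AC170187.1. Among the other 8 receptors no gene shared as much as 1% of the words, and exon overlap was found in Esrra alone, which shares 73 bases with Trmt112 on the opposite strand and 91 bases with Mir6990. Trmt112 read 37.8, 41.1 and 42.7 FPKM in SAHH-KO and 35.5, 27.7 and 34.5 FPKM in control. Reads of those 73 bases, 1.66% of the Esrra exon bases, cannot be told apart either.

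Of 20 clock genes 13 were tested, 6 higher and 2 lower, with a median log2 fold change of 0.35. These are 46.2% and 15.4% of those tested, beside 26.4% and 26.8% of all genes. With TPM 5 were higher and 3 lower, or 38.5% and 23.1%, beside 19.4% and 37.6% of all genes. Arntl, the activator that REV-ERB proteins repress, rose to 7.63 ± 0.798 FPKM in SAHH-KO, against 4.61 ± 0.678 FPKM in control (adjusted p = 0.00220). Nfil3, a repressor of D-box genes that REV-ERBα also represses in other tissues, rose to 19.6 ± 1.30 FPKM, against 8.24 ± 0.205 FPKM in control, and the casein kinase gene Csnk1e rose to 5.58 ± 1.11 FPKM, against 2.95 ± 0.206 FPKM in control. Bhlhe41 (DEC2), a repressor in the clock, fell to 2.70 ± 0.340 FPKM in SAHH-KO, against 6.08 ± 0.559 FPKM in control. Clock, the partner of ARNTL, stood at 3.96 ± 0.0960 FPKM in SAHH-KO and 5.06 ± 0.650 FPKM in control, and its call (adjusted p = 0.0390) was lost in 5 of 6 fits that left out a library, with adjusted p up to 0.119. Cry2 and Ciart, looked at after their values were seen, rose 1.82-fold and 1.96-fold, and Cry1 had 5.78 ± 0.404 FPKM in SAHH-KO and 6.72 ± 0.627 FPKM in control (adjusted p = 0.129). Clock genes thus went both ways, and any part of the lower REV-ERB transcripts in these values was not tested. Among the corepressors, 2 of 7 tested were higher and 2 lower (median log2 fold change -0.15). That is 28.6% in each direction, close to the 26.4% and 26.8% of all genes. Ncor1 had 23.1 ± 0.982 FPKM in SAHH-KO and 17.7 ± 1.39 FPKM in control (adjusted p = 0.00631), a call lost under TPM, and Tbl1x, its complex partner, had 22.9 ± 1.28 FPKM in SAHH-KO and 15.5 ± 0.794 FPKM in control. Tbl1xr1 and Lcor, the lower members, had fold changes of -0.33 and -0.30, and each lost its call in 4 of 6 fits without a library. Hdac3, looked at after its values were seen, had 15.0 ± 0.792 FPKM in SAHH-KO and 16.8 ± 0.934 FPKM in control (adjusted p = 0.144).

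Rxra fell. It read 3.29, 2.81 and 2.91 FPKM in SAHH-KO and 6.01, 4.63 and 4.01 FPKM in control, and no SAHH-KO library reached the lowest control library. The mean of 3.01 ± 0.251 FPKM in SAHH-KO was 61.6% of the 4.88 ± 1.02 FPKM in control, with a log2 fold change of -0.54 (SE 0.131, 95% interval -0.84 to -0.24, adjusted p = 0.00834). Rxrb, a second RXR gene, had 12.5 ± 0.266 FPKM in SAHH-KO and 11.4 ± 1.53 FPKM in control (adjusted p = 0.319), and its fold change of 0.13 turned to -0.02 with TPM. Rxrg had no read in any library. The sum of the RXR genes was 15.5 ± 0.277 FPKM in SAHH-KO and 16.3 ± 2.37 FPKM in control, of which Rxra made up 19.4% ± 1.47 in SAHH-KO and 29.9% ± 3.24 in control. The profiles nearest to Rxra were those of Itpr3, Pex10 and Vegfb, at distances of 0.102, 0.113 and 0.125.

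Rara, the retinoic acid receptor α gene, read 4.96, 3.73 and 4.82 FPKM in SAHH-KO and 4.28, 3.12 and 3.56 FPKM in control, and the groups overlapped. Its log2 fold change was 0.24 (SE 0.129, 95% interval -0.05 to 0.54, adjusted p = 0.146). Within a library the log2 ratio of Rara to Rxra was 0.45 ± 0.132 in SAHH-KO and -0.33 ± 0.171 in control, with no overlap between the groups (exact permutation p = 0.10, the smallest possible). Rarg, another retinoic acid receptor gene, rose to 5.44 ± 1.93 FPKM in SAHH-KO, against 1.08 ± 0.121 FPKM in control (log2 fold change 1.59, SE 0.192, adjusted p = 0.000235). Rarb had no read. Rarg thereby supplied 53.8% ± 5.67 of the summed RAR FPKM in SAHH-KO, against 23.1% ± 3.30 in control, with no overlap between libraries.

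Of 20 genes that make, carry, degrade or answer to retinoids, 7 were tested, 2 higher and 2 lower, with a median log2 fold change of 0.0047. The share called was 28.6% in each direction, close to the 26.4% and 26.8% of all genes. Aldh1b1, a mitochondrial aldehyde dehydrogenase gene, rose to 34.7 ± 7.56 FPKM in SAHH-KO, against 1.79 ± 0.236 FPKM in control (log2 fold change 3.66, adjusted p = 6.52e-07). Tgm2, a transglutaminase gene that retinoic acid induces, rose to 48.4 ± 5.61 FPKM, against 25.4 ± 5.47 FPKM in control. Fabp5, which carries fatty acids and retinoic acid, fell to 21.1 ± 1.98 FPKM in SAHH-KO, against 63.2 ± 4.33 FPKM in control, and the retinol dehydrogenase gene Dhrs9 fell to 16.7 ± 2.06 FPKM, against 47.4 ± 5.19 FPKM in control.

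Vdr was at the edge of detection. It had 0, 1 and 0 reads in the SAHH-KO libraries and 2, 0 and 1 reads in the control libraries, all below the 3 reads taken as the floor, which correspond to 0.0297 to 0.0349 FPKM for this gene. No fold change is given, and a difference was not detectable at this depth. The log2 ratio of Vdr to Rxra, at -1.99 ± 0.0958 in SAHH-KO and -2.53 ± 0.236 in control, rests on the Rxra values, since Vdr was at or near 0 in every library. Of 12 genes of vitamin D synthesis and response 5 were tested, 3 higher and 1 lower, beside 26.4% and 26.8% of all genes. With TPM 2 of the 5 were higher and 2 lower, beside 19.4% and 37.6% of all genes. Cyp27a1, a hydroxylase of sterols and vitamin D, rose to 9.14 ± 1.93 FPKM in SAHH-KO, against 2.08 ± 0.393 FPKM in control. Cdkn1a, a cell-cycle inhibitor gene and also a p53 target, had 169 ± 5.49 FPKM in SAHH-KO and 43.9 ± 3.26 FPKM in control. The lipopolysaccharide coreceptor gene Cd14 had 2378 ± 136 FPKM in SAHH-KO and 2025 ± 59.9 FPKM in control, and its call (adjusted p = 0.0293) was lost under TPM and in 4 of 6 fits without a library. Pdia3, a chaperone of the endoplasmic reticulum, fell to 153 ± 10.5 FPKM, against 266 ± 20.8 FPKM in control.

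Esrra was the most abundant of the 10 in both groups. It read 49.2, 42.4 and 44.1 FPKM in SAHH-KO and 33.1, 21.1 and 27.3 FPKM in control, so that every SAHH-KO library was above every control library. The mean was 45.2 ± 3.56 FPKM in SAHH-KO and 27.2 ± 5.96 FPKM in control, a 1.66-fold difference (log2 fold change 0.73, SE 0.149, 95% interval 0.39 to 1.07, adjusted p = 0.00359). Its level rests on the gene length used. The file gives 2539 bases, whereas the merged exons in GENCODE M21 come to 4387 bases, at which the means would be 26.2 FPKM in SAHH-KO and 15.7 FPKM in control, still the highest mean of the 10. For the other members the lengths agreed except Nr3c1, with 7425 and 7684 bases. Esrra held 32.2% ± 0.625 of the FPKM summed over 49 nuclear receptor genes in SAHH-KO and 27.2% ± 2.73 in control. With the M21 length for Esrra alone and the deposited lengths for the other genes, it held 21.6% ± 0.484 in SAHH-KO and 17.8% ± 2.00 in control.

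Of 22 genes that ERRα and its PGC-1 coactivators drive or partner with, 19 were tested, 2 higher and 4 lower, with a median log2 fold change of -0.03. The lower genes are 21.1% of those tested, beside 26.8% of all genes. With TPM 8 were called lower, or 42.1%, beside 37.6% of all genes. Perm1, a regulator of ERR target genes in muscle, rose to 4.56 ± 0.965 FPKM in SAHH-KO, against 1.27 ± 0.175 FPKM in control, and Sod2, the mitochondrial superoxide dismutase gene, had 94.3 ± 1.55 FPKM in SAHH-KO and 67.0 ± 1.17 FPKM in control. Sod2 is induced by inflammatory signals as well. The Krebs cycle gene Idh3a fell to 22.0 ± 0.906 FPKM in SAHH-KO, against 33.9 ± 2.37 FPKM in control, and the cytochrome c gene Cycs fell to 36.4 ± 1.90 FPKM, against 51.4 ± 5.94 FPKM in control. Etfdh, of fatty acid oxidation, had 3.59 ± 0.436 FPKM in SAHH-KO and 4.62 ± 0.243 FPKM in control, and its call (adjusted p = 0.0339) was lost in 4 of 6 fits without a library. Ppargc1b, looked at after its values were seen, had 1.70 ± 0.622 FPKM in SAHH-KO and 1.56 ± 0.329 FPKM in control (adjusted p = 0.773).

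Of 17 coactivator genes tested 4 rose and 3 fell (median log2 fold change 0.20), or 23.5% and 17.6%, beside 26.4% and 26.8% of all genes. TPM values called 1 higher and 4 lower, or 5.88% and 23.5%, beside 19.4% and 37.6% of all genes. Kat2b, an acetyltransferase gene, had 4.68 ± 0.546 FPKM in SAHH-KO and 3.05 ± 0.213 FPKM in control (adjusted p = 0.00429) and kept its call under both other scalings. The p160 coactivator genes Ncoa3 and Ncoa1 had fold changes of 0.36 and 0.34 and lost their calls under another scaling. Nsd1, a histone methyltransferase gene, fell to 0.542 ± 0.0690 FPKM in SAHH-KO, against 1.22 ± 0.0594 FPKM in control, and it entered the test only through the control libraries, since every SAHH-KO library was under 1 FPKM. Ncoa4, the ferritin autophagy receptor gene, fell to 3.42 ± 0.252 FPKM, against 4.84 ± 0.256 FPKM in control. Prmt1, with a fold change of -0.24, lost its call in 5 of 6 fits without a library.

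By level, the order in SAHH-KO was Esrra, Nr4a1, Nr3c1, Rara, Nr1d1, Rxra, Nr1d2, Nr4a3, Nr4a2 and Vdr. In control it was Esrra, Nr3c1, Nr1d1, Rxra, Rara, Nr1d2, Nr4a1, Nr4a2, Nr4a3 and Vdr. Neighbours whose library values overlapped were Nr4a1 and Nr3c1, Rara and Nr1d1, and Nr4a3 and Nr4a2 in SAHH-KO, and Nr3c1, Nr1d1, Rxra and Rara in succession in control. Nr4a1 thus ranked 2 in SAHH-KO and 7 in control.

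Over the 49 nuclear receptor genes of the mouse, 13 had no read in any library and 16 were tested. Of the 9 tested outside the 10, 3 were higher and 1 lower, beside 26.4% and 26.8% of all genes. Over the 16 tested, 31.2% were higher and 18.8% lower. Rarg and Thra, given above, were higher, as was Nr1h2, the liver X receptor β gene, at 22.1 ± 1.30 FPKM in SAHH-KO and 14.0 ± 0.785 FPKM in control (log2 fold change 0.63, adjusted p = 0.000379). Ppard, a receptor for fatty acids, fell to 2.94 ± 0.294 FPKM in SAHH-KO, against 4.70 ± 1.14 FPKM in control (-0.52, adjusted p = 0.0164), and lost its call in 1 of 6 fits without a library (adjusted p = 0.0579). Nr1h3, Nr2c1, Nr2c2 and Nr2f6, besides Rxrb, had log2 fold changes between -0.25 and 0.20 and did not pass the threshold. The files' own family column placed the NR4A genes in a class of their own (NGFIB-like), Rxra in the RXR-like class, Nr3c1 and Esrra in the ESR-like class, and the other members in the THR-like class.

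**Figure D4:**
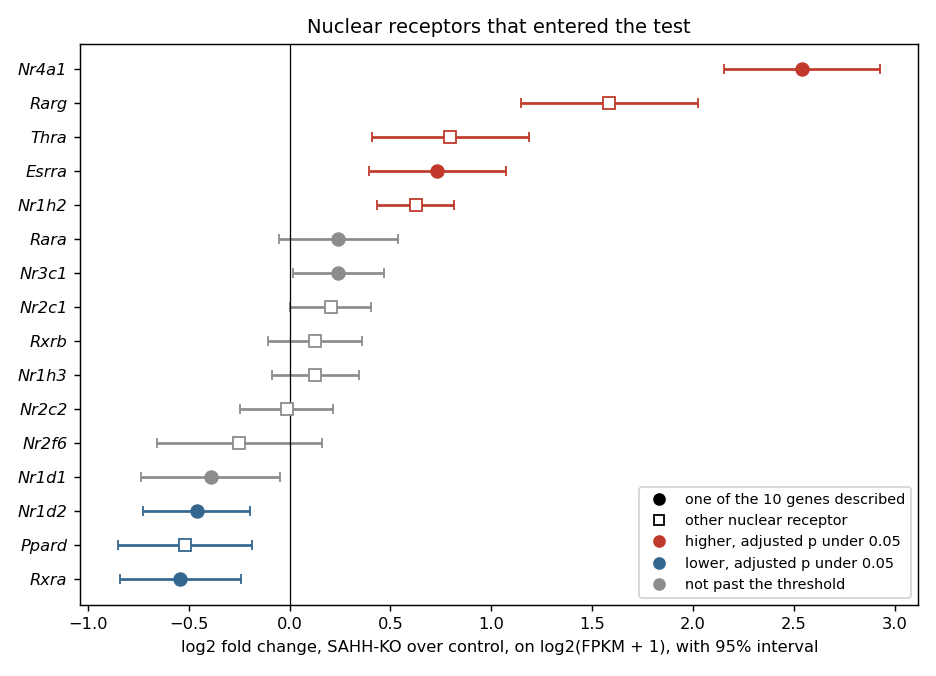
Log2 fold change of SAHH-KO over control on log2(FPKM + 1) for the 16 nuclear receptor genes that entered the test, with 95% intervals from limma. Filled circles are the receptors described and open squares the others. Nr4a1 is at the top at 2.54 and Rxra at the bottom at -0.54, with 8 of the 16 genes past the threshold, beside 53.3% of all tested genes.

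**Figure D5:**
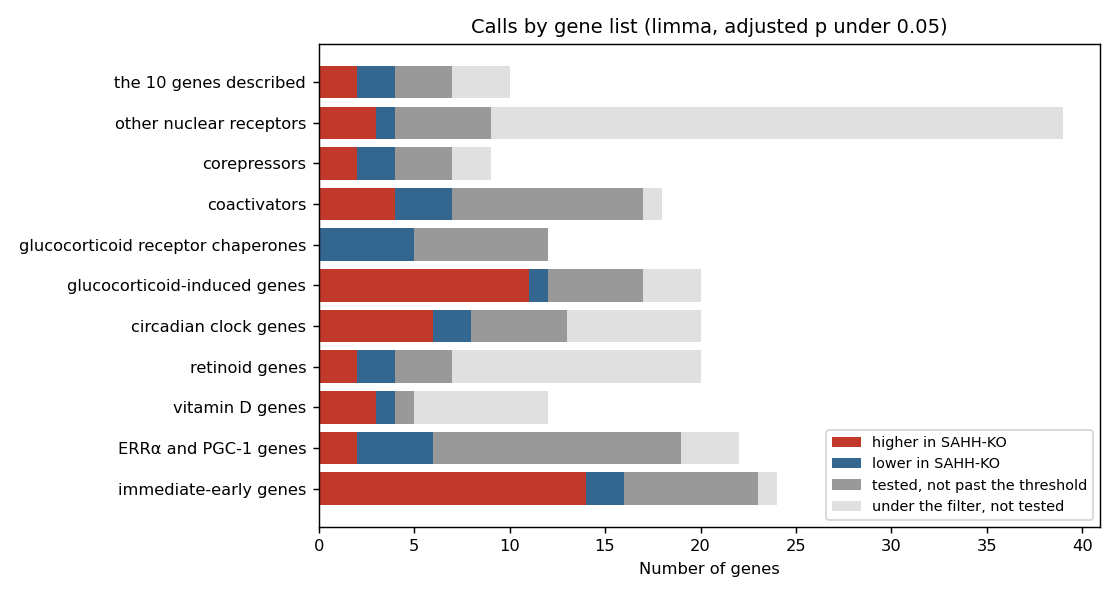
Number of genes in each list that were higher, lower, tested without a call, or under the filter. Immediate-early genes (14 higher, 2 lower) and glucocorticoid-induced genes (11 higher, 1 lower) hold mostly higher genes, and the chaperones (5 lower, none higher) hold lower ones. Of all tested genes 26.4% were higher and 26.8% lower.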

How the data were processed

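Bulk RNA-seq of 3 SAHH-KO and 3 control libraries was analysed. The authors deposited 1 table of FPKM values for 54532 genes, with coordinates, gene length and a transcription factor family. The submitters' processing notes name STAR, featureCounts, Trim Galore and FastQC, with mm10 and GRCm38 as builds. Versions, strand use and the FPKM formula are not given in the sources used here. Gene length, in bases per the file headers, is a score of no sample and was used to work out reads: FPKM times length was a whole multiple of 1 step in 100% of values above 0, within 0.01 of a read. The library sizes behind the deposited values were 0.937 to 0.960 times the assigned reads in SAHH-KO and 1.05 to 1.07 times in control.

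Tests covered the 10362 genes that reached 1 FPKM in 3 or more libraries, using limma 3.58.1 in R 4.3.3 on log2(FPKM + 1), with an intensity trend, group as the only term, two-sided, and Benjamini-Hochberg adjustment over all genes tested. All adjusted p-values are limma's unless voom is named, and all ± values are SDs over 3 libraries. A count test was not the main test because the table holds no counts. Ratios between receptors were compared with exact permutation tests (scipy 1.17.1). The floor was 3 reads per library and covers counting error only. No pair of libraries was identical, and replicates differed by more than counting noise (chi-square per degree of freedom 4.19 to 31.5). Deviations of equally numbered libraries were weakly correlated at most (0.0955, 0.101 and -0.00557). The 0.0955 and 0.101 were above the other pairs across the groups, of which the highest was 0.0284. No pairing is given by the labels, and the fit has no block.

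The members, the 10 gene lists (206 symbols, all matched) and the tests were chosen with earlier results of these data known. Named genes are Ahcy, the members, the other tested nuclear receptors, the 3 genes of each list with the smallest p in each direction among those called, the 3 profiles nearest to the largest rise and the largest fall, and genes overlapping a member. Promoters come from RefSeq, GRCm38.p6, and exon overlap and 50-base words from GENCODE M21, where 9 members have the file's coordinates. Protein sequences were not used here. Alternatives were TPM and assigned-read scaling, a pseudocount of 0.1, other filters, limma without the trend, voom on reads, a replicate block and leaving out each library.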

Additional observations from a re-analysis of the deposited data

How the results depend on the processing

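The direction of each of the 7 tested receptors was kept in all alternatives in which it could be fitted, and Nr4a1, Esrra, Rxra and Nr1d2 kept their calls in these. Members higher stayed at 2 or 3 except in the voom fit with at least 10 reads in 3 libraries, chosen after the data were seen. That fit called 4 of the 9 members in it (Nr3c1 and Nr4a3 besides Nr4a1 and Esrra). Leaving out each library gave 2 to 3 higher and 2 to 3 lower. With a mean of at least 5 FPKM 0 members were lower, since Rxra, Nr1d1, Nr1d2 and Rara are under it, and 1850 genes in all were lower of the 6515 then tested. Over all genes, leaving out a library gave 2236 to 2934 higher and 2199 to 2969 lower. TPM gave 2006 higher and 3894 lower, and assigned-read scaling 2033 and 3905. The log2 ratio of Nr1d1 to Nr1d2 was 0.07 higher in SAHH-KO but ranged from -0.12 to 0.30 when a library was left out (-0.12 without control replicate 3), and the cause was not tested. The other 4 ratios kept their sign without each library and with a pseudocount of 0.1. Without a pseudocount, added after the data were seen, the difference was 0.78 for Nr4a1 to Nr4a3, with overlapping groups, 3.005 for Nr4a1 to Nr4a2, 0.29 for Nr1d1 to Nr1d2 and 0.99 for Rara to Rxra.

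Small lists moved more. Over all alternatives the lower and higher counts ranged from 0 to 4 and 1 to 2 for corepressors (2 and 2 as reported), from 1 to 4 and 1 to 8 for coactivators (3 and 4), from 3 to 10 lower for chaperones (5), from 0 to 3 and 3 to 8 for clock genes (2 and 6), from 2 to 9 and 1 to 2 for ERRα genes (4 and 2), from 1 to 2 and 7 to 12 for glucocorticoid-induced genes (1 and 11), from 1 to 2 lower for vitamin D genes (1), and from 0 to 5 and 3 to 7 for the whole superfamily (3 and 5). Retinoid and immediate-early counts stayed within 1.5 times. No pairing is given by the labels. With the replicate block 2729 genes were higher and 2761 lower, and among the members 2 were higher and 3 lower, the addition being Nr1d1. Depth limits Vdr, Nr4a2 and Nr4a3, at 4, 181 and 259 reads over all libraries.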
